A study of Capra hircus with 25 samples.

Results

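The miR-17-92 cluster is a group of microRNAs (miRNAs, small RNAs that silence messenger RNAs by pairing with them) cut from 1 primary transcript. Here it was read as every entry of the miRNA table whose stem was miR-17, miR-18a, miR-19a, miR-19b, miR-20a or miR-92a, whatever the prefix or arm. The rule found 11 of the 463 entries, which came from 6 hairpins and all carried goat names (prefix chi-). An arm is the strand of a hairpin that a miRNA is cut from, written 5p or 3p. The miR-17, miR-18a, miR-19b, miR-20a and miR-92a hairpins had an entry for each arm, and miR-19a had a single entry with no arm in its name.

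In mouse and human the primary transcript is switched on by MYC and E2F factors, is abundant in dividing and embryonic cells, and is often amplified in tumours. Its miRNAs fall into groups that share a seed, the bases that pair with targets. miR-17 and miR-20a share one seed and repress, among others, the cell cycle inhibitor CDKN1A and the cell cycle factor E2F1. miR-18a has a closely related seed, and miR-18a and miR-19 repress the matrix proteins CTGF and THBS1. miR-19a and miR-19b share another seed, and miR-92a, of the miR-25 seed group, represses integrin alpha 5 in endothelium. Processing of the miR-18a hairpin is aided by the RNA-binding protein hnRNP A1 in human cells.

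The study followed the liver of kids of the Laiwu black goat over early life, from birth (1 day) through 2, 4 and 8 weeks to an age of 12 weeks. Each age had 5 libraries, making 25. No genotype, treatment or sex is given in the labels used here, and age is the difference between the groups. The labels do not tie the 5 libraries of an age to separate kids, and p-values therefore reflect library-to-library spread that may be technical. Values are RPM, the reads of a miRNA scaled to a common library total, and the steps of the values put 7169463 to 12096213 reads behind a library. Means are given ± SD (n = 5 libraries each), and log2 changes ± their standard error. Log2 changes are of RPM + 1, which understates the change of low miRNAs. All 11 members were among the 405 miRNAs that passed the filter on low values.

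The scaling of the libraries bears on every change below. At 12 weeks against 1 day the median log2 change of all 405 miRNAs was -0.54 with the deposited scaling and -0.01 after median-ratio scaling, which sets the typical miRNA of each library to the same level. The factors of that scaling were 0.742 to 0.876 in the 12-week libraries and 1.13 to 1.34 in the 1-day libraries. Changes are given first with the deposited scaling and then relative to the typical miRNA. Ratios of members within a library do not depend on the scaling, apart from the pseudocount.

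In the goat RefSeq annotation (assembly ARS1.2) the 6 hairpin genes are neighbours in the order MIR92A, MIR19B, MIR20A, MIR19A, MIR18A and MIR17, with no other gene between them. Positions are left out, because no source used here names the build behind the table. Levels differed widely among members although their hairpin genes are neighbours. Reads from related genes may be included in these levels, because the rule for assigning shared reads is not known. chi-miR-92a-3p was the most abundant, with a mean of 3268 RPM over the 25 libraries and place 36 among the 463 entries. It was followed by chi-miR-19b-3p (949 RPM, place 69), chi-miR-20a-5p (627 RPM, place 87), chi-miR-17-5p (362 RPM, place 109), chi-miR-19a (160 RPM, place 141) and chi-miR-18a-5p (129 RPM, place 154). The other strands were far lower, with chi-miR-20a-3p at 18.1 RPM, chi-miR-17-3p at 12.8 RPM, chi-miR-92a-5p at 6.77 RPM, chi-miR-18a-3p at 4.02 RPM and chi-miR-19b-5p at 0.773 RPM. The prefix is left out from here on. Mature miRNAs are nearly of one length, so these levels are compared without a length correction, but the capture of each sequence in a small RNA library differs and was not measured.

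Summed over the 11 members, the cluster had 6168 ± 715 RPM at 1 day, 5095 ± 704 RPM at 2 weeks, 6031 ± 950 RPM at 4 weeks, 4969 ± 707 RPM at 8 weeks and 5425 ± 328 RPM at 12 weeks. The sums of neighbouring ages overlapped. miR-92a-3p made up 62.0% of the sum at 1 day, 58.3% at 2 weeks, 54.8% at 4 weeks, 58.1% at 8 weeks and 62.6% at 12 weeks.

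**Figure D1:**
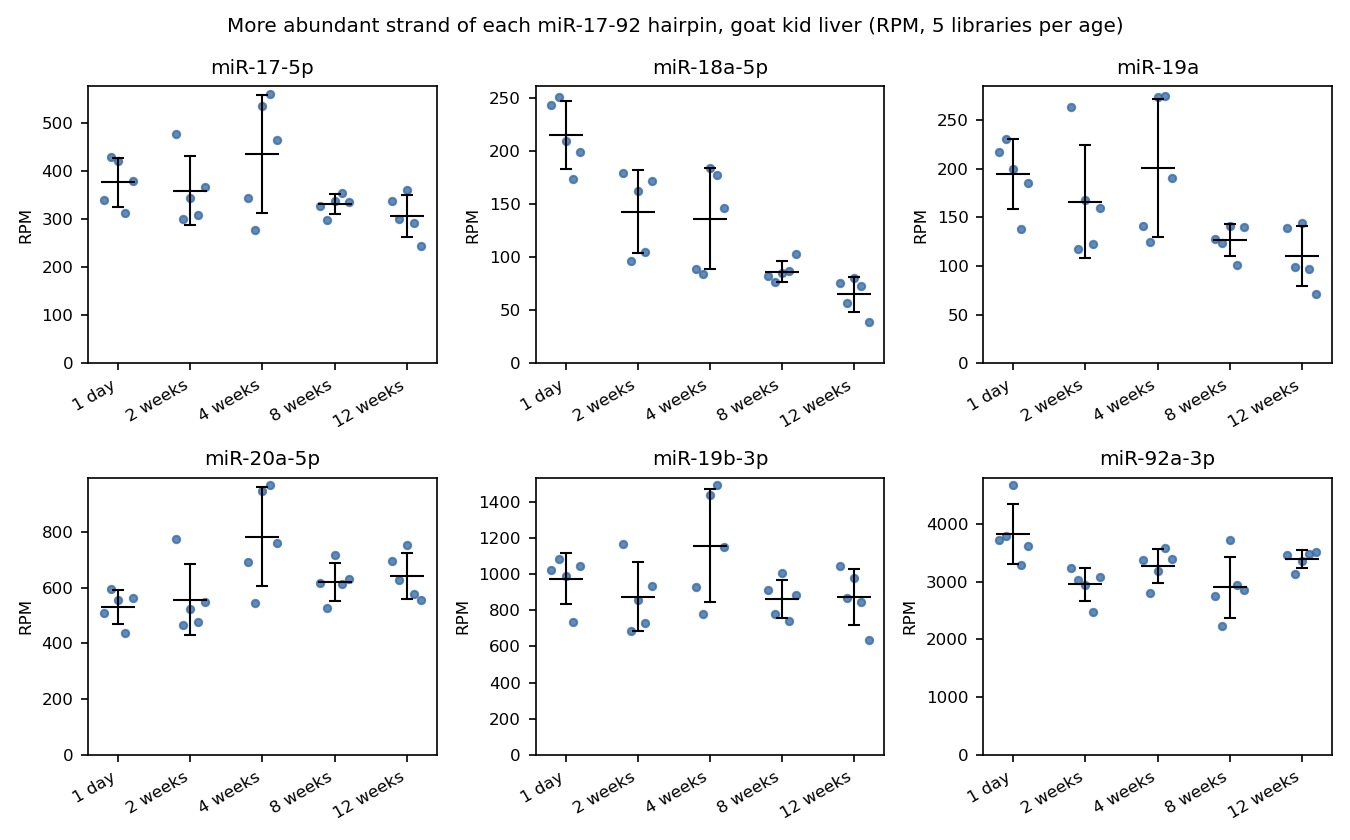
Level of the main strand of each hairpin (RPM, vertical axis) against age (horizontal axis, 5 libraries per age), with each point 1 library, the long bar the mean and the short bars 1 SD. miR-18a-5p averaged 65.0 RPM at 12 weeks and 216 RPM at 1 day, while the averages of miR-20a-5p were 642 RPM at 12 weeks and 532 RPM at 1 day.

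miR-18a, the repressor of CTGF and THBS1, was lower at 12 weeks than at 1 day on both arms, with either scaling. miR-18a-5p had 75.9, 56.4, 80.5, 72.6 and 39.4 RPM in the 12-week libraries, against 243.9, 251.1, 209.7, 173.8 and 199.4 RPM in the 1-day libraries. Each 12-week library lay below every 1-day library, and 12-week replicate 5 was the lowest of the 25. By limma with Benjamini-Hochberg adjustment over the 405 miRNAs, miR-18a-5p fell 3.36-fold (log2 change -1.75 ± 0.23, adjusted p = 3.52e-07). Relative to the typical miRNA its log2 change was -1.17 ± 0.19 (limma, adjusted p = 7.63e-06).

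The levels of miR-18a-5p were ordered by age. The means were 216 ± 32.1 RPM at 1 day, 142.97 ± 39.3 RPM at 2 weeks, 137 ± 47.5 RPM at 4 weeks, 86.6 ± 9.86 RPM at 8 weeks and 65.0 ± 16.9 RPM at 12 weeks. Libraries of each neighbouring pair of ages overlapped, while those of 8 weeks and of 12 weeks lay wholly below those of 1 day. The log2 change against 1 day was -1.30 ± 0.23 at 8 weeks (limma, adjusted p = 3.96e-05) and -0.72 ± 0.23 at 4 weeks (adjusted p = 0.0161). The 4-week call did not pass after median-ratio scaling (log2 change -0.46, adjusted p = 0.0648), without 4-week replicate 1 (adjusted p = 0.0615) or without 4-week replicate 2 (adjusted p = 0.0576).

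The other strand, miR-18a-3p, had 3.42, 1.68, 2.48, 2.93 and 1.96 RPM in the 12-week libraries, against 6.71, 8.00, 9.63, 5.22 and 6.20 RPM in the 1-day libraries, and the ages did not overlap. It fell 2.33-fold (log2 change -1.22 ± 0.20, limma, adjusted p = 7.53e-06), and by 0.76 on the log2 scale relative to the typical miRNA (adjusted p = 0.000474). Its means were 7.15 ± 1.71 RPM at 1 day, 4.88 ± 0.812 RPM at 2 weeks, 2.97 ± 1.27 RPM at 4 weeks, 2.63 ± 0.257 RPM at 8 weeks and 2.49 ± 0.706 RPM at 12 weeks. These levels rest on 15 to 79 reads per library, against a median of 1091 reads for miR-18a-5p. The log2 change of miR-18a-3p against 1 day was -1.14 ± 0.20 at 8 weeks (limma, adjusted p = 3.96e-05) and -1.07 ± 0.20 at 4 weeks (adjusted p = 0.000226), and both calls were kept after median-ratio scaling.

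miR-17 and miR-20a share a seed. miR-17-5p averaged 376 ± 50.5 RPM at 1 day, 359 ± 71.1 RPM at 2 weeks, 436 ± 122.4 RPM at 4 weeks, 331 ± 20.7 RPM at 8 weeks and 307 ± 44.2 RPM at 12 weeks. At 12 weeks against 1 day its libraries overlapped, and its log2 change of -0.30 ± 0.17 did not pass (limma, adjusted p = 0.119). After median-ratio scaling the sign turned, with a log2 change of 0.29 ± 0.12 (limma, adjusted p = 0.0443).

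miR-20a-5p had 697.4, 628.3, 753.6, 576.0 and 556.5 RPM in the 12-week libraries, against 509.2, 594.0, 555.1, 437.8 and 564.5 RPM in the 1-day libraries. The 12-week values were mostly the higher ones, but the ages overlapped, and the log2 change of 0.27 ± 0.15 did not pass (limma, adjusted p = 0.122). Relative to the typical miRNA, miR-20a-5p was 1.81-fold higher at 12 weeks (log2 change 0.85 ± 0.12, limma, adjusted p = 1.41e-06) with no overlap between these ages.

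With the deposited scaling the mean of miR-20a-5p was highest at 4 weeks, and after median-ratio scaling at 12 weeks (781.9 RPM, and 751.5 RPM at 4 weeks). With the deposited scaling it was 532 ± 60.9 RPM at 1 day, 558 ± 127 RPM at 2 weeks, 783 ± 179 RPM at 4 weeks, 621 ± 67.6 RPM at 8 weeks and 642 ± 82.7 RPM at 12 weeks. At 4 weeks it rose 1.45-fold over 1 day (log2 change 0.53 ± 0.15, limma, adjusted p = 0.00892), and the call was kept after median-ratio scaling (log2 change 0.80). At 8 weeks its log2 change was 0.22 ± 0.15 (limma, adjusted p = 0.21) with the deposited scaling and 0.64 relative to the typical miRNA (adjusted p = 0.000107).

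The 3p strands of both hairpins were lower at 12 weeks with the deposited scaling only. miR-20a-3p had 14.1, 16.2, 19.4, 14.1 and 16.4 RPM in the 12-week libraries, against 26.8, 22.0, 21.4, 20.2 and 21.7 RPM in the 1-day libraries, without overlap (log2 change -0.46 ± 0.15, limma, adjusted p = 0.0068). miR-17-3p averaged 10.2 ± 1.56 RPM at 12 weeks and 14.7 ± 1.20 RPM at 1 day, also without overlap (log2 change -0.48 ± 0.18, limma, adjusted p = 0.0213). Relative to the typical miRNA the log2 changes were 0.09 for miR-20a-3p (limma, adjusted p = 0.555) and 0.06 for miR-17-3p (adjusted p = 0.778), with the sign turned and neither passing. Without 12-week replicate 4 the call for miR-17-3p was lost with the deposited scaling (limma, adjusted p = 0.0565).

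miR-19a and miR-19b-3p, which share a seed, were called differently, and the difference between their changes was not tested. miR-19a had 139.5, 98.6, 143.8, 97.4 and 71.1 RPM in the 12-week libraries, against 217.6, 230.7, 200.1, 137.8 and 185.5 RPM in the 1-day libraries. Most 12-week libraries lay below the 1-day ones, but 1-day replicate 4 overlapped them, and miR-19a fell 1.79-fold (log2 change -0.84 ± 0.23, limma, adjusted p = 0.00273). Relative to the typical miRNA the log2 change was -0.26 ± 0.19 and did not pass (limma, adjusted p = 0.242). By age miR-19a averaged 194.3 ± 36.0 RPM at 1 day, 166 ± 58.5 RPM at 2 weeks, 201 ± 71.1 RPM at 4 weeks, 127 ± 16.5 RPM at 8 weeks and 110 ± 30.9 RPM at 12 weeks.

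miR-19b-3p averaged 873 ± 156 RPM at 12 weeks and 975 ± 139 RPM at 1 day, with overlap and a log2 change of -0.17 ± 0.17 (limma, adjusted p = 0.401), which turned to 0.42 after median-ratio scaling (adjusted p = 0.00873). Its mean was highest at 4 weeks, with 1158 ± 310 RPM. miR-19b-5p rested on 1 to 17 reads per library and averaged 0.936 ± 0.508 RPM at 12 weeks and 0.658 ± 0.381 RPM at 1 day, a difference that did not pass (limma, adjusted p = 0.354).

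miR-92a-3p had 3462, 3131, 3368, 3479 and 3513 RPM in the 12-week libraries, against 3726, 3791, 4686, 3294 and 3624 RPM in the 1-day libraries. The ages overlapped, and the log2 change of -0.16 ± 0.11 did not pass (limma, adjusted p = 0.198). After median-ratio scaling it was 0.42 ± 0.11 (limma, adjusted p = 0.00204). At 8 weeks, with 2901 ± 535 RPM against 3824 ± 518 RPM at 1 day, miR-92a-3p fell by 0.41 on the log2 scale (limma, adjusted p = 0.00358), and after median-ratio scaling the change was 0.01 (adjusted p = 0.928). miR-92a-5p averaged 6.998 ± 1.26 RPM at 12 weeks and 5.74 ± 2.52 RPM at 1 day, with overlap (limma, adjusted p = 0.282), and after median-ratio scaling its log2 change was 0.81 (adjusted p = 0.00556).

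**Figure D2:**
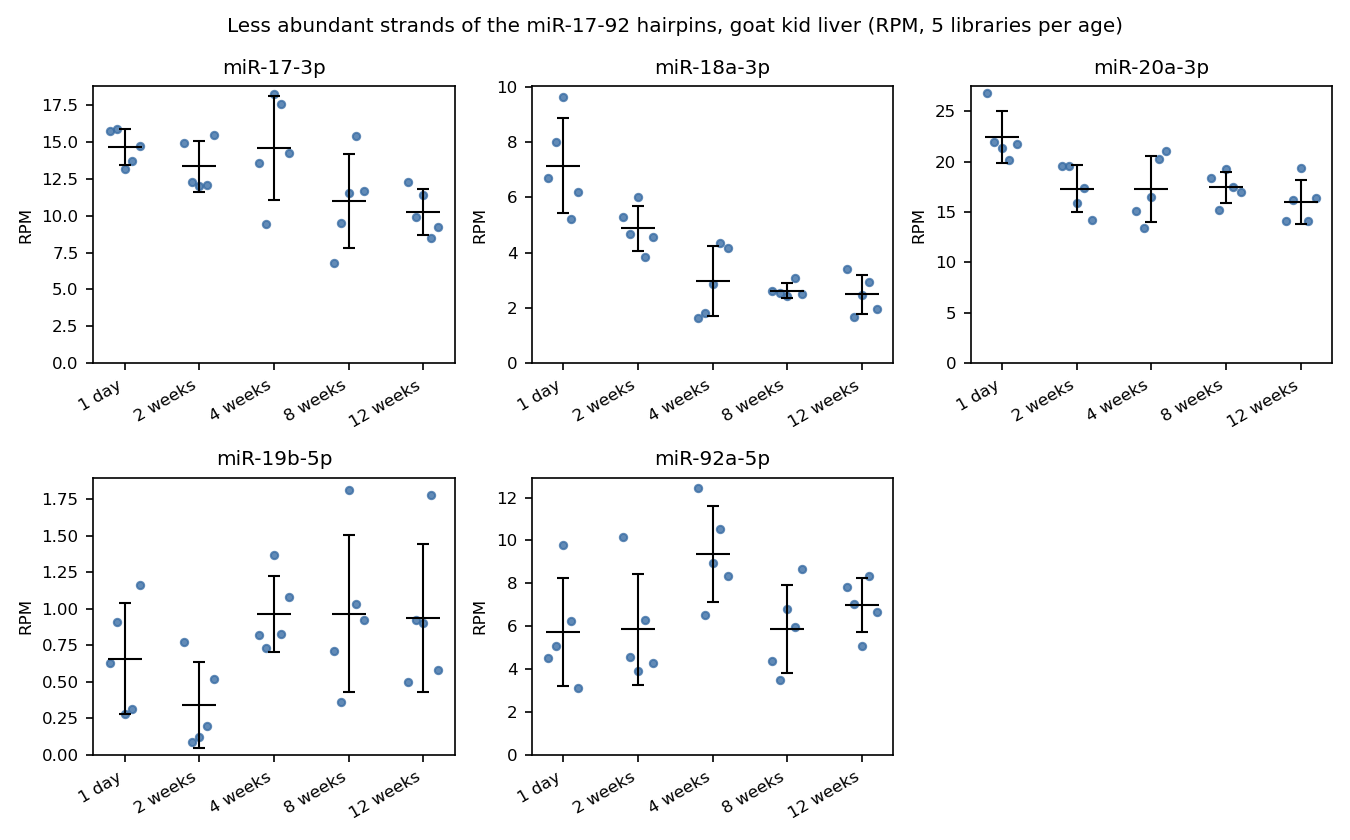
Level of the less abundant strand of each hairpin (RPM, vertical axis) against age (horizontal axis, 5 libraries per age), with each point 1 library, the long bar the mean and the short bars 1 SD. The average of miR-18a-3p was 2.49 RPM at 12 weeks and 7.15 RPM at 1 day, and the mean of miR-92a-5p was highest at 4 weeks.

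miR-92a-3p can share reads with a near-identical miRNA, miR-92b. The ratio of miR-92b to miR-92a-3p lay between 0.788 and 0.877 in all 25 libraries, and the Pearson correlation of their log2 levels was 0.98. In the RefSeq annotation a MIR92B gene stands between MIR363 and MIR20B, within the related miR-106a-363 cluster. No source used here says how reads that match both miRNAs were assigned, so the level of miR-92a-3p is uncertain. miR-18a and miR-18b, and miR-20a and miR-20b, are likewise close in sequence.

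Over the members as a group, 5 of 11 were called lower and 0 of 11 higher at 12 weeks against 1 day with the deposited scaling, and 5 of 11 passed at an unadjusted p under 0.05. Of all 405 miRNAs, 54.8% were called lower and 11.6% higher, so the members' share of lower calls was near the background. The median log2 change was -0.30 for the members and -0.54 for all miRNAs. After median-ratio scaling 2 members, both arms of miR-18a, were called lower and 5 higher (miR-17-5p, miR-19b-3p, miR-20a-5p and both arms of miR-92a), beside 32.8% lower and 28.9% higher among all miRNAs. The median was then 0.29 for the members. The libraries of 12 weeks and 1 day did not overlap for 4 of the 11 members with the deposited scaling, beside 53.1% of all miRNAs, and for 4 after median-ratio scaling, beside 48.6%.

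**Figure D3:**
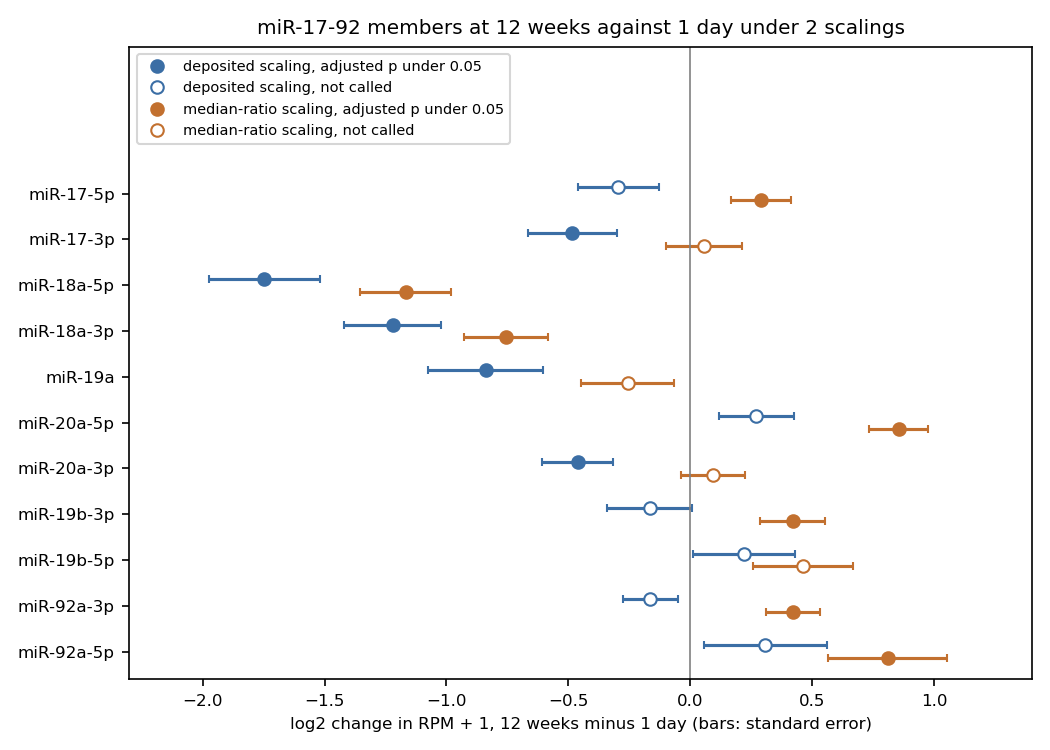
Log2 change at 12 weeks against 1 day of the 11 members (horizontal axis, log2 of RPM + 1), with the deposited scaling in blue and median-ratio scaling in orange, bars of 1 SE and filled points for an adjusted p under 0.05. Only the arms of miR-18a are filled and below 0 with both scalings, at -1.75 and -1.22 with the deposited one, and miR-20a-5p lies at 0.27 and 0.85.

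The comparisons of 8, 4 and 2 weeks with 1 day use the same 1-day libraries and are not independent of each other. At 8 weeks 6 of 11 members were called lower and 0 higher, beside 49.1% lower and 13.1% higher among all miRNAs, and 6 passed at an unadjusted p under 0.05. The 6 were both arms of miR-18a, miR-17-3p, miR-19a, miR-20a-3p and miR-92a-3p. Leaving out 1 library at a time gave 3 to 5 calls, with 3 without 1-day replicate 1 or without 1-day replicate 2. The call of miR-17-3p was lost in 8 of 10 such fits, that of miR-20a-3p in 8 and that of miR-19a in 4. After median-ratio scaling 2 were called lower (both arms of miR-18a) and 1 higher (miR-20a-5p), beside 26.2% lower and 24.9% higher among all miRNAs.

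At 4 weeks 3 of 11 members were called lower (both arms of miR-18a and miR-20a-3p) and 2 higher (miR-20a-5p and miR-92a-5p), beside 28.4% lower and 8.4% higher among all miRNAs. After median-ratio scaling 1 was called lower (miR-18a-3p) and 4 higher (miR-17-5p, miR-19b-3p, miR-20a-5p and miR-92a-5p), beside 12.3% lower and 18% higher. miR-92a-5p had 12.5, 6.54, 8.93, 10.6 and 8.36 RPM in the 4-week libraries, against 4.51, 5.06, 9.77, 6.25 and 3.10 RPM in the 1-day libraries, with overlap (log2 change 0.67 ± 0.25, limma, adjusted p = 0.0401). The 4-week replicates 1 and 2 stood apart for several members. miR-17-5p had 343.4 and 276.8 RPM in those libraries and 534.0, 560.7 and 464.5 RPM in the others, and miR-20a-5p had 692.8 and 545.0 RPM in those libraries and 949.1, 969.5 and 760.4 RPM in the others. Without both, the log2 change against 1 day was -0.34 for miR-18a-5p (limma, adjusted p = 0.289), -0.21 for miR-20a-3p (adjusted p = 0.337) and 0.68 for miR-92a-5p (adjusted p = 0.0881), none of which passed. Those of miR-18a-3p (-0.76, limma, adjusted p = 0.00896) and miR-20a-5p (0.75, adjusted p = 0.00148) still passed. The count of 5 called members was 2 without 4-week replicate 1, and 3 without 4-week replicate 2, 1-day replicate 1, 1-day replicate 2 or 1-day replicate 5.

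At 2 weeks limma called 0 of 11 members, beside 5.68% of all miRNAs, although 4 members passed at an unadjusted p under 0.05. The smallest adjusted p was 0.0509, for miR-92a-3p. Leaving out 1-day replicate 4 or 2-week replicate 1 gave 1 call. Between neighbouring later ages limma also called 0 of 11 members. Of all miRNAs it called 2.96% at 4 weeks against 2 weeks, 6.91% at 8 weeks against 4 weeks and 1.23% at 12 weeks against 8 weeks. At an unadjusted p under 0.05, 5, 6 and 1 members passed in these comparisons. The share of all miRNAs at that looser threshold is not given here, so these counts have no background to be set beside. Without 4-week replicate 2, 6 members were called lower at 8 weeks against 4 weeks, and 1 was called higher at 4 weeks against 2 weeks, as it was without 2-week replicate 1. The share of all miRNAs called in those fits is not given here either.

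Across the 5 ages together, limma's F test called 5 of 11 members (both arms of miR-18a, miR-19a, miR-20a-5p and miR-92a-3p), beside 64.7% of all miRNAs. The smallest adjusted p was 3.45e-06, for miR-18a-5p. After median-ratio scaling 8 members were called, beside 60.7% of all miRNAs, of which 4 were called with the deposited scaling too. Without 4-week replicate 2 the count was 9 with the deposited scaling, and the share of all miRNAs in that fit is not given here.

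Ratios within a library compare members whose hairpins share a transcript. How reads that also match related miRNAs were assigned is not known, so reads from other genes may be included. The ratio of miR-18a-5p to miR-17-5p was 0.226, 0.188, 0.224, 0.248 and 0.161 in the 12-week libraries, against 0.717, 0.586, 0.498, 0.557 and 0.526 in the 1-day libraries. Each 12-week library lay below every 1-day library, and the ratio was 2.73-fold lower at 12 weeks (difference of -1.45 on the log2 scale, exact two-sided permutation test, p = 0.00794, adjusted p = 0.0132 over 5 ratios). That p is the smallest that rearranging 10 libraries can give. Only pairs of members were tested, so how common such a separation is among other pairs of miRNAs is not known. This holds for the ratios below too. Of single miRNAs, 53.1% did not overlap between these ages with the deposited scaling, and 48.6% after median-ratio scaling. By age the ratio averaged 0.577 ± 0.085 at 1 day, 0.396 ± 0.071 at 2 weeks, 0.309 ± 0.031 at 4 weeks, 0.262 ± 0.025 at 8 weeks and 0.209 ± 0.035 at 12 weeks. The libraries of 2 weeks lay below those of 1 day with no overlap, and those of later neighbouring ages overlapped. The 4-week replicates 1 and 2, which stood apart in level, had ratios of 0.260 and 0.305, near the others of that age at 0.315 to 0.346.

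The ratio of miR-20a-5p to miR-17-5p, which share a seed, moved the other way. It was 2.07, 2.09, 2.10, 1.97 and 2.28 in the 12-week libraries, against 1.497, 1.386, 1.319, 1.403 and 1.488 in the 1-day libraries. All 12-week libraries lay above all 1-day libraries, with a ratio 1.48-fold higher at 12 weeks (log2 difference 0.57, exact two-sided permutation test, p = 0.00794, adjusted p = 0.0132). By age it averaged 1.42 ± 0.075 at 1 day, 1.55 ± 0.050 at 2 weeks, 1.83 ± 0.162 at 4 weeks, 1.88 ± 0.153 at 8 weeks and 2.10 ± 0.111 at 12 weeks. Only the libraries of 2 and 4 weeks did not overlap among neighbouring ages.

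The balance of the arms of the miR-20a hairpin shifted as well. The ratio of miR-20a-5p to miR-20a-3p was 49.5, 38.8, 38.9, 40.8 and 34.0 in the 12-week libraries, against 18.99, 27.0, 26.0, 21.7 and 26.0 in the 1-day libraries. All 12-week libraries lay above all 1-day libraries (1.66-fold, log2 difference 0.73, exact two-sided permutation test, p = 0.00794, adjusted p = 0.0132). By age it averaged 23.9 ± 3.45 at 1 day, 32.5 ± 6.93 at 2 weeks, 45.6 ± 8.09 at 4 weeks, 35.5 ± 1.54 at 8 weeks and 40.4 ± 5.68 at 12 weeks.

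The ratios that involve miR-92a did not pass. miR-92a-3p stood at 11.3 ± 1.96 times miR-17-5p at 12 weeks and 10.2 ± 0.978 times at 1 day (log2 difference 0.13, exact two-sided permutation test, p = 0.357, adjusted p = 0.357), and the ratio averaged 7.93 ± 1.94 at 4 weeks. The ratio of miR-92a-3p to miR-92a-5p was 499 ± 101 at 12 weeks and 750 ± 276 at 1 day (log2 difference -0.47, exact two-sided permutation test, p = 0.0714, adjusted p = 0.0893). Other ratios are given without a test. miR-19a to miR-19b-3p averaged 0.199 at 1 day, 0.187 at 2 weeks, 0.170 at 4 weeks, 0.147 at 8 weeks and 0.124 at 12 weeks, and every 12-week library lay below every 1-day library. miR-18a-5p to miR-20a-5p averaged 0.406 at 1 day, 0.257 at 2 weeks, 0.171 at 4 weeks, 0.140 at 8 weeks and 0.1005 at 12 weeks. The arm ratio of miR-18a, 5p to 3p, overlapped between 12 weeks (26.6 ± 6.08) and 1 day (31.0 ± 5.49). That of miR-17 overlapped too, with 30.1 ± 3.25 at 12 weeks and 25.8 ± 4.07 at 1 day.

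**Figure D4:**
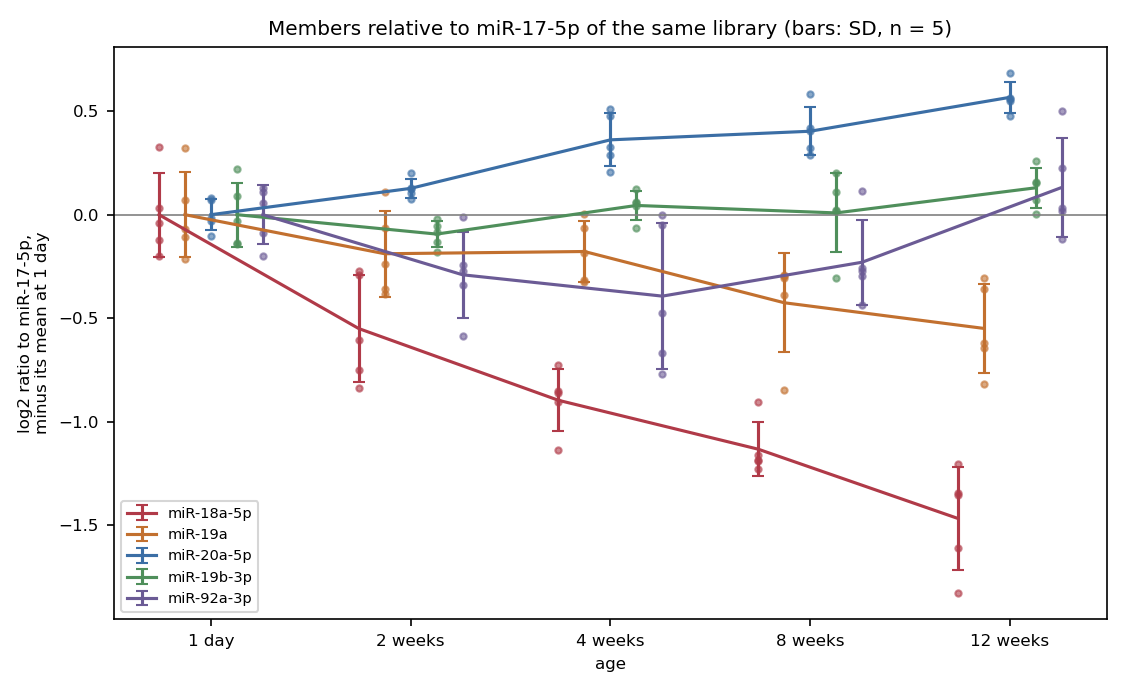
Log2 ratio of other main strands to miR-17-5p in the same library, minus its mean at 1 day (vertical axis). Age is on the horizontal axis, with 5 libraries per age. Each point is 1 library, the lines join the means and the bars are 1 SD. As a plain ratio, miR-18a-5p averaged 0.209 at 12 weeks and 0.577 at 1 day. That of miR-20a-5p averaged 2.10 at 12 weeks and 1.42 at 1 day.

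Members also differed in which miRNAs their levels followed, by the Pearson correlation of log2(RPM + 1) over the 25 libraries among 267 other miRNAs with a mean of at least 10 RPM. The libraries share their ages and their scaling, so these values are descriptions. miR-18a-5p was most like miR-1307-3p (r = 0.97, and 0.92 after median-ratio scaling), miR-362-3p (0.95 and 0.90) and miR-98-3p (0.94 and 0.90). miR-18a-3p was most like miR-421-3p (0.91 and 0.83), miR-500-5p (0.89 and 0.76) and miR-483 (0.87 and 0.79). miR-17-5p was most like miR-93-5p (0.86 and 0.76), miR-106b-5p (0.84 and 0.64) and miR-544-5p (0.80 and 0.27), the first of which carry its seed.

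miR-20a-5p was instead most like miR-455-5p (0.71 and 0.80), miR-204-5p (0.71 and 0.86) and miR-122 (0.66 and 0.81), the last being the main miRNA of hepatocytes. miR-19a was most like miR-106b-5p (0.91 and 0.73), miR-301a-3p (0.90 and 0.78) and miR-376b-3p (0.90 and 0.75), and miR-19b-3p was most like miR-190a-5p (0.76 and 0.71), miR-326-3p (0.74 and 0.60) and miR-106b-5p (0.72 and 0.52). For miR-92a-3p the closest after miR-92b (0.98 and 0.99) were miR-423-3p (0.67 and 0.53) and miR-423-5p (0.66 and 0.72). After median-ratio scaling miR-423-3p was at place 31 of the 267 and miR-423-5p at place 4. For miR-92a-5p and miR-19b-5p the 3 highest values lay between 0.47 and 0.63, and between 0.59 and 0.67 after median-ratio scaling. Some likenesses of the main strands depended on the scaling. With median-ratio scaling miR-544-5p was at place 61 for miR-17-5p, and miR-106b-5p at place 25 for miR-19b-3p. The likeness of the other strands miR-17-3p and miR-20a-3p depended on the scaling too. miR-17-3p was most like miR-128-3p (0.82 and 0.44), miR-93-5p (0.78 and 0.51) and miR-544-5p (0.78 and 0.34), and miR-20a-3p most like miR-374b-5p (0.73 and 0.44), miR-500-5p (0.72 and 0.03) and miR-154a-3p (0.69 and -0.06).

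The related clusters carry some of the same seeds. Their calls at 12 weeks against 1 day are to be set beside 54.8% lower and 11.6% higher among all miRNAs, with a median log2 change of -0.54. After median-ratio scaling the shares among all miRNAs were 32.8% lower and 28.9% higher, with a median of -0.01. Of 6 tested arms of miR-106b-25, which lies beside MCM7 in the RefSeq annotation, 5 were called lower and 0 higher at 12 weeks against 1 day, with 6 passing at an unadjusted p under 0.05 and a median log2 change of -0.45. After median-ratio scaling 0 were called lower and 1 higher, with 1 passing at an unadjusted p under 0.05 (limma). Its most abundant arm, miR-25-3p of the miR-92a seed group, had 2015 ± 137 RPM at 12 weeks and 2379 ± 256 RPM at 1 day (log2 change -0.24 ± 0.10, limma, adjusted p = 0.033), and 0.35 after median-ratio scaling. For miR-106a-363 the list held 7 arms and left out miR-92b, which is given apart below. Of the 7 arms, 4 passed the filter, and 2 of these were called lower and 0 higher, with 2 passing at an unadjusted p under 0.05. After median-ratio scaling 1 was called lower (miR-18b-5p) and 1 higher (miR-106a-5p, log2 change 0.49, limma, adjusted p = 0.0293, against -0.04 and adjusted p = 0.87 with the deposited scaling). The most abundant of the 7 arms, miR-363-3p, had 15.7 ± 1.81 RPM at 12 weeks and 23.9 ± 5.12 RPM at 1 day (log2 change -0.56 ± 0.20, limma, adjusted p = 0.0152, and 0.00 after median-ratio scaling). The other, miR-18b-5p, the close relative of miR-18a-5p, had 1.66 ± 0.541 RPM at 12 weeks and 4.65 ± 1.47 RPM at 1 day and was lower with both scalings (log2 change -1.07 ± 0.28, limma, adjusted p = 0.00133, and -0.65 after median-ratio scaling, adjusted p = 0.0298). miR-92b had 2715 ± 136 RPM at 12 weeks and 3219 ± 429 RPM at 1 day (log2 change -0.24 ± 0.12, limma, adjusted p = 0.0781), and after median-ratio scaling the sign turned and it was called higher (log2 change 0.35, adjusted p = 0.0085).

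Markers of other and resident cell types were read in the same libraries, and their calls are to be set beside 54.8% lower and 11.6% higher among all miRNAs. Their summed levels in the 12-week and 1-day libraries were 258541 to 302434 RPM and 240633 to 278813 RPM for 7 hepatocyte arms, of which 1 was called higher and 0 lower by limma, and 1 passed at an unadjusted p under 0.05. The call was of a sheep-named entry, oar-miR-194 (log2 change 0.78, limma, adjusted p = 1.35e-05). The goat-named entry chi-miR-194, counted as a separate arm, did not pass (log2 change -0.01, limma, adjusted p = 0.918). The sums were 96063 to 129961 RPM at 12 weeks and 112846 to 139881 RPM at 1 day for 8 mesenchymal arms, of which 1 was called lower. For the 4 erythroid arms they were 2733 to 4371 RPM at 12 weeks and 1382 to 2171 RPM at 1 day, and of 3 tested 1 was called higher (miR-451-5p) and 1 lower (miR-144-5p). For the 8 leukocyte arms they were 2861 to 4325 RPM at 12 weeks and 1696 to 2678 RPM at 1 day, and of 7 tested 2 were called higher, while miR-155-3p was at 0 in every library of both ages. For the 4 striated muscle arms they were 6174 to 13565 RPM at 12 weeks and 594 to 2138 RPM at 1 day, and 3 were called higher. After median-ratio scaling, beside 32.8% lower and 28.9% higher among all miRNAs, 0 marker arms were called lower in any of these lists. Then 7 of 7 hepatocyte, 2 of 8 mesenchymal, 1 of 3 erythroid, 6 of 7 leukocyte and 4 of 4 muscle arms were called higher, and the call of miR-144-5p was lost (log2 change 0.08, limma, adjusted p = 0.758). The summed ranges of hepatocyte and of mesenchymal arms overlapped between the ages with the deposited scaling, and those of the other lists did not. The part of these cells in the changes of the cluster was not tested, and in whole liver, fewer cells of a type and less of a miRNA per cell cannot be told apart.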

How the data were processed

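Small RNA profiles of 25 goat liver libraries (5 ages, 5 libraries each) were analysed from the authors' deposited table of 463 miRNAs. Per the labels' protocols, RNA from frozen liver was extracted with Trizol and a stranded total RNA kit was used; no source used here gives a small RNA selection step. Per the submitters' processing notes, Bowtie 1.1.1 was among the tools. No source used here gives the genome build, the miRNA annotation or the rule for multiply matching reads. The authors deposited RPM, a unit read from the values: columns summed to 1010980 to 1018220, for which no source gives the reason, and in every library 100% of values were whole multiples, within 0.1 read, of 1 read, worth 0.0838 to 0.142 RPM. A count of 0 allows up to 3 reads (0.251 to 0.425 RPM), for counting error only.

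Values were taken as log2(RPM + 1). Of the entries, 405 reached 1 RPM in 5 or more libraries and were tested, and 58 were left out. The fit was made with limma 3.58.1 in R 4.3.3 (trended eBayes, all 25 libraries, 1 mean per age), with Benjamini-Hochberg adjustment and a threshold of 0.05. The fit was tested on simulated data. For 5 ratios at 12 weeks against 1 day, exact two-sided permutation tests over libraries were used (scipy 1.17.1), adjusted over the 5. Ratios printed per library and as means are plain RPM ratios, and log2 differences are of RPM + 1, except those of ratios without a test. Figures were drawn with matplotlib. Members were taken by stem. Other miRNAs named are the most abundant arm of each related cluster, all called arms of miR-106a-363 (miR-18b-5p and miR-106a-5p chosen after their values were seen), miR-92b, and the 3 most correlated with each member. The list of miR-106a-363 arms did not hold miR-92b. Marker lists were hepatocytes (miR-122, miR-192, miR-194, miR-148a), erythroid cells (miR-451, miR-144), leukocytes (miR-150, miR-155, miR-223, miR-342, miR-146a), mesenchymal cells (miR-143, miR-145, miR-199a, miR-214) and striated muscle (miR-1, miR-133a, miR-206); miR-486 and miR-142 were not analysed here. The members, the lists and the leaving out of both 4-week libraries were chosen with earlier results of these data known. Alternatives were median-ratio and trimmed-mean scaling, other filters and pseudocounts, only the ages compared, a replicate block and leaving out libraries. Sequences are not given here.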

Additional observations from a re-analysis of the deposited data

Results flagged for a closer look

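In 6 of 80 groups of 5 libraries (11 members and 5 ratios at each age) 1 library lay far from the other 4 by Dixon's test, with a gap over the range above 0.71. Chance gives about 1 in 20 such groups. At 1 day, miR-19b-3p was at 735.2 RPM in replicate 4, with the next library at 986.9 RPM, and miR-20a-3p was at 26.8 RPM in replicate 1, with the next at 22.0 RPM. At 2 weeks, miR-20a-5p was at 776.1 RPM in replicate 1, with the next at 548.3 RPM. At 8 weeks, miR-18a-3p was at 3.08 RPM in replicate 4, with the next at 2.61 RPM. The ratio of miR-92a-3p to miR-17-5p was 11.02 in 8-week replicate 3, with the next at 8.501. The ratio of miR-18a-5p to miR-17-5p was 0.306 in 8-week replicate 5, with the next at 0.256.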

How the results depend on the processing

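The direction and call of both miR-18a arms at 12 and 8 weeks against 1 day were the same under every alternative run that kept them, and the filter at a mean of 10 RPM leaves out miR-18a-3p. Median-ratio scaling called 7 members at 12 weeks, 3 at 8 weeks (each against 1 day), 1 at 4 against 2 weeks and 8 among the 5 ages, and trimmed-mean scaling 8 (2 lower, 6 higher), 3, 1 and 8. At 12 weeks against 1 day the log2 changes that turned sign with median-ratio and trimmed-mean scaling were those of miR-17-3p (0.0555 and 0.0656), miR-17-5p (0.29 and 0.30), miR-19b-3p (0.42 and 0.43), miR-20a-3p (0.0935 and 0.104) and miR-92a-3p (0.42 and 0.43), and among the calls at 8 weeks those of miR-20a-3p (0.0600 and 0.0612) and miR-92a-3p (0.0128 and 0.0141). Changes that were not called turned sign with median-ratio scaling too: miR-17-5p and miR-19b-3p at 8 weeks, miR-17-3p, miR-19a and miR-92a-3p at 4 weeks, miR-17-3p, miR-17-5p and miR-19b-3p at 2 weeks, and some between neighbouring ages. The scaling divides each library by its own factor, lower in the 12-week than in the 1-day libraries. At 2 weeks against 1 day the calls numbered 1 with no filter, 1 with a mean of at least 10 RPM, 2 with a pseudocount of 10 and 2 without both 4-week libraries that stood apart. At 4 weeks against 1 day they numbered 3 with a mean of at least 10 RPM, which leaves out low members, and 3 with only the 2 ages fitted. Without both 4-week libraries there were 3 calls at 4 against 2 weeks, 6 at 8 against 4 weeks and 9 among the 5 ages, and miR-17-5p passed at 12 weeks against 1 day (log2 change -0.30, limma, adjusted p = 0.0478). With a pseudocount of 10 the ratio of miR-92a-3p to miR-92a-5p passed (log2 difference -0.29, exact permutation test, adjusted p = 0.0298). Leaving out 1 library at a time gave 4 to 5 calls at 12 weeks, 3 to 5 at 8 weeks, 2 to 5 at 4 weeks and 0 to 1 at 2 weeks against 1 day, 0 to 1 at 4 against 2 weeks, 0 to 6 at 8 against 4 weeks and 4 to 9 among the 5 ages. Apart from the median-ratio shares given above, the share of all miRNAs called under these alternatives is not given here. The counts of members under them, above and below, therefore have no background to be set beside.

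No label pairs libraries of the same replicate number, and their values gave little sign of a pairing. Of 50 same-numbered pairs 11 had a correlation of deviations over 0.1 (median -0.03, range -0.42 to 0.33). Only 1 of 25 libraries correlated best with its own number. Such a check cannot exclude a pairing. With the replicate block the calls numbered 5, 4, 4 and 0 at 12, 8, 4 and 2 weeks against 1 day. The block ended the calls of miR-17-3p at 8 weeks (limma, adjusted p = 0.0596) and of miR-20a-3p at 8 weeks (0.066) and 4 weeks (0.0713). For the ratios, sign flips over 5 pairs cannot go below p = 0.0625, so the log2 differences of -1.45 (miR-18a-5p to miR-17-5p), 0.57 (miR-20a-5p to miR-17-5p) and 0.73 (arms of miR-20a) had an adjusted p of 0.104 each in this exact test and could not pass.

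The count tests edgeR and DESeq2 were planned and not run, because the table holds RPM, and most libraries had too few low values for the recovered reads to meet the rule set for count tests. Depth limits miR-19b-5p, with a median of 7 reads per library, and the 3p arm of miR-18a.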

Other observations

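The members' levels were correlated to unequal degrees over the 25 libraries, which share their ages and scaling, so the values are descriptions. By Pearson's r of log2(RPM + 1), miR-17-5p and miR-19b-3p had 0.90 with the deposited scaling and 0.87 after median-ratio scaling, and miR-19b-3p and miR-20a-5p had 0.80 and 0.88. The arms of miR-18a had 0.83 and 0.69. miR-18a-5p had 0.70 and 0.02 with miR-17-5p, and 0.74 and 0.22 with miR-17-3p. miR-18a-5p and miR-20a-5p, from hairpins of the same transcript, had 0.05 and -0.46, and the arms of miR-20a had 0.00 and 0.21. By the SD of log2(RPM + 1) over the 25 libraries, miR-18a-5p varied most of the 11 members, with 0.70, against 0.22 for miR-92a-3p. Adding 1 RPM understates the spread of low members such as miR-19b-5p, which ranged from 0.09 to 1.81 RPM.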
